A study of Mus musculus with 2 samples.

Results

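Of the 1881 mouse miRNAs on the array, 38 carry a name from miR-5097 to miR-5136 in the numbering of the registry miRBase, and these entries include miR-5100, 1 of the miRNAs that the study followed as cargo of bone marrow-derived mesenchymal stem cell (BMSC) exosomes. The members were chosen by the number in the name alone, with any letter or arm suffix, and the lowest number found on the array was 5098. They were measured with 79 probes and 1140 spots on each array. A total of 35 members had 2 probes and 3 members had 3 probes, with 10 to 15 spots per probe.

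The arrays held small RNA from serum exosomes, the vesicles that cells release into blood, of mice with subcutaneous tumours. In the LLC group, 1000000 luciferase-labelled cells of the Lewis lung carcinoma line, a syngeneic tumour of C57BL/6 mice, were injected alone. In the MSC+LLC group, the same number of tumour cells was injected together with murine BMSCs. Serum was drawn in both groups at a mean tumour volume of 200 mm3, and 100 ng of RNA was labelled with the dye Cy3. The comparison asked which exosomal miRNAs in the circulation differed when BMSCs had been injected with the tumour. Each group had 1 array, on the same slide and in the same scan, and the number of mice behind an array is not given in the sources used here, so position on the slide, individual mice and treatment cannot be told apart. The titles name serum, the study's text names plasma, and the source labels name the tumour cells and lung tissue.

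A miRNA is cut from a hairpin precursor and guides silencing proteins to messenger RNAs, mainly through its seed, bases 2 to 8 counted from the 5′ end. miRBase gives out numbers in the order in which sequences are submitted, so entries with neighbouring numbers share a time of discovery and need not share sequence, locus or function. Many late entries came from deep sequencing of small RNA, and some lie inside other kinds of transcript, such as repeats, small nucleolar RNAs or sequence that resembles transfer RNA.

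Mature sequences from RefSeq (GRCm38.p6) were matched by name for 32 of the 38 members. The 6 members that were measured on both arrays and have an entry are shown with the seed in capitals, because the ratios described here rest on them.
miR-5100: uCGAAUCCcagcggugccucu
miR-5128: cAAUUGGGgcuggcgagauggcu
miR-5131: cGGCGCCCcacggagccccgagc
miR-5126: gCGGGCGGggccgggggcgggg
miR-5113: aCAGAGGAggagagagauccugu
miR-5119: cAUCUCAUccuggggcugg
The other members measured on both arrays were miR-5112 and miR-5107-5p. The 3 members with the strongest LLC signal among those seen on the LLC array alone were miR-5130, miR-5118 and miR-5121, and their sequences are shown for the contrast between the arrays.
miR-5130: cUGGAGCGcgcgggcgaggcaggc
miR-5118: aAGGUUAGgccagccuggu
miR-5121: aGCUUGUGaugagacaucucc

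No seed was shared between any of the 32 members with a sequence. A total of 5 members shared a seed with another miRNA on the array, and of the 13 detected members with a sequence this was 1, miR-5110, whose seed GAGGAGG is also that of miR-7081-5p. Among the members that were detected on neither array, miR-5124b has the seed GGCUCAG of miR-24-3p. The members are therefore not a seed family, and each is described as a separate miRNA.

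The loci were spread over the genome. In the GRCm38.p6 annotation, 29 of the 32 members lie inside an annotated gene and 28 of them inside a protein-coding gene, whether on the same or the other strand. miR-5100 lies at chr11:60728698-60728718 on the plus strand inside Mief2, which encodes an adaptor of mitochondrial fission. miR-5128 lies at chr2:37688212-37688234 on the minus strand inside Strbp, which encodes an RNA-binding protein. miR-5131 lies at chr14:45657972-45657994 on the minus strand inside Ddhd1, which encodes a phospholipase. miR-5126 lies at chr1:84695890-84695911 on the plus strand inside Dner, which encodes a Notch ligand-like receptor. miR-5113 lies at chr15:80940049-80940071 on the plus strand inside Tnrc6b, which encodes a scaffold of the miRNA silencing complex. miR-5119 lies at chr11:98262638-98262656 on the plus strand inside Cdk12, which encodes a kinase of RNA polymerase II. miR-5121 lies at chr7:45126925-45126945 on the minus strand, inside the small nucleolar RNA gene Snord33 and its host Rpl13a, a ribosomal protein gene. The file headers name another build for the array design, so these positions come from the sequences by name and not from the probes.

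The hairpin of miR-5100 is shown because its mature sequence begins within letters known from another RNA class. In the 64-base RefSeq precursor, at chr11:60728663-60728726 on the plus strand, the capitals mark the letters GUUCGAAUC, which resemble the T arm of many transfer RNAs.
Mir5100: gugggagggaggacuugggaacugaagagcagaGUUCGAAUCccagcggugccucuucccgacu
The motif, which was chosen after the sequence had been seen and was searched on both strands, covers bases 34 to 42 of the precursor, and the mature miRNA covers bases 36 to 56, so that all but the first bases of the motif lie within the mature sequence. It was found in 1 of 1005 RefSeq mouse hairpins (0.0995%), that of miR-5100. The letters GAGAUGGCU at the 3′ end of miR-5128, which also occur in the B2 repeat of the mouse genome, were found in 16 of the 1005 hairpins (1.59%) and in 1 of the 30 hairpins of members. These matches are descriptions of sequence, and which transcript gave the signal on the arrays was not tested.

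Signals are given as Agilent intensity, in arbitrary units after background subtraction, as the mean ± SD over the spots of a probe. With 1 array per group this SD measures the spread between spots and not between mice, and no test between the groups was possible. Detection of a probe required that over 50% of the spots kept for it lay well above background, and detection of a miRNA required 1 such probe. The MSC+LLC array was dimmer as a whole: the 75th percentile over probes seen on both arrays was 2883 for LLC against 250.3 for MSC+LLC, a difference of 3.53 on the log2 scale. Signals were therefore divided by this percentile of their own array, and all log2 ratios of MSC+LLC over LLC are relative to it. The SD given with a miRNA's log2 ratio is carried over from the spot SDs of its probes to their mean. It therefore narrows with the number of probes averaged. The 4 hybridization spike-in probes differed by 0.04 on the log2 scale between the arrays and the 4 labelling spike-in probes by -1.32. All 8 miRNAs in a list of species abundant in blood or liver, which included miR-16-5p, miR-451a and miR-122-5p, were detected on both arrays.

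More members were detected on the LLC array than on the MSC+LLC array. On the LLC array, 15 of the 38 members (39.5%) were detected, beside 26.7% of all miRNAs. On the MSC+LLC array, 8 of the 38 (21.1%) were detected, beside 13.7% of all miRNAs. All 8 were also detected on the LLC array, so that 7 members were seen on the LLC array alone, none on the MSC+LLC array alone, and 23 on neither. Of the members detected on the LLC array, 53.3% were also detected on the MSC+LLC array, beside 47.8% of all miRNAs. In miR-6237 to miR-6420, another run of late mouse entries, 14 of 95 miRNAs (14.7%) gave a signal on the LLC array against 4 (4.21%) on the other array, and 28.6% were kept. In miR-670 to miR-719, an older run rich in rodent miRNAs, 19 of 61 (31.1%) and 6 (9.84%) were detected, and 31.6% were kept. These shares are counts of entries on a pair of arrays, and the differences between the runs were not tested.

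**Figure D1:**
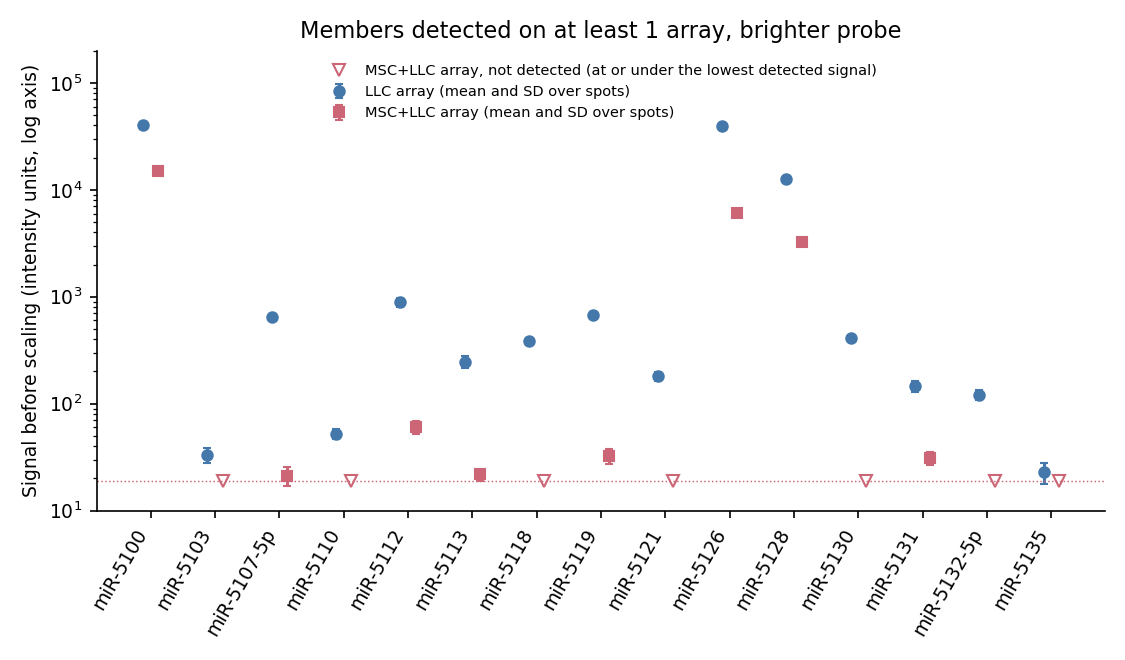
Signal of the brighter probe of each of the 15 members detected on at least 1 array, before scaling, in intensity units on a log axis. Circles are the LLC array and squares the MSC+LLC array (mean, with bars for the SD over spots), and open triangles mark members not detected on the MSC+LLC array, drawn at the lowest detected signal there, 18.8 (dotted line). Every filled pair has the LLC array above the MSC+LLC array, and 7 members have a triangle.

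miR-5100 had 2 probes, and both were far above background on both arrays. The first probe read 5479 ± 948 (SD, n = 14 spots) on the LLC array against 1229 ± 222 (SD, n = 15 spots) on the MSC+LLC array. The second probe read 40325 ± 3118 (SD, n = 14 spots) on the LLC array against 15053 ± 774 (SD, n = 15 spots) on the MSC+LLC array. Both probes were thus dimmer on the MSC+LLC array, by 4.46-fold and 2.68-fold, but by less than the array as a whole. After scaling, the log2 ratio of miR-5100 was 1.74 ± 0.19 (SD from spots), 3.33-fold higher in MSC+LLC, while without scaling the same probes gave -1.79 and the opposite direction. The probes gave log2 ratios of 1.37 and 2.10, which lay 0.74 apart, more than the SD from spots of either probe. Among the 240 miRNAs measured on both arrays, miR-5100 was the 42nd from the top, and 82.5% of them had a lower ratio. The other miRNAs that the study selected with it had log2 ratios of 0.84 ± 0.20 (miR-193a-3p) and 0.27 ± 0.06 (miR-210-3p), and miR-5100 lay above them by 0.90 ± 0.28 and 1.47 ± 0.20. The gap to miR-193a-3p shrank to 0.37 under quantile normalization and to 0.00085 under normexp background correction with an offset of 50, and the gap to miR-210-3p to 0.73 and 1.16.

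miR-5128 also had 2 probes above background on both arrays. They read 1400 ± 95.8 (SD, n = 15 spots) and 12732 ± 730 (SD, n = 15 spots) on the LLC array. On the MSC+LLC array they read 286 ± 13.9 (SD, n = 14 spots) and 3253 ± 197 (SD, n = 15 spots). The log2 ratio was 1.40 ± 0.09 after scaling and -2.13 without it, so that miR-5128 too was dimmer on the MSC+LLC array but kept more of its signal than most miRNAs, 78.3% of which had a lower ratio.

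miR-5126, whose mature sequence consists of G and C alone, read 37869 ± 2087 (SD, n = 15 spots) and 39838 ± 2499 (SD, n = 14 spots) on its 2 probes on the LLC array. On the MSC+LLC array they read 5339 ± 164 (SD, n = 14 spots) and 6115 ± 360 (SD, n = 15 spots). The probes gave close log2 ratios, 0.70 and 0.82, with a mean of 0.76 ± 0.08 after scaling and -2.77 without it. This was 1.69-fold and below the 2-fold threshold, and 67.5% of miRNAs had a lower ratio.

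miR-5131 was near the lower limit. Its brighter probe read 146 ± 17.1 (SD, n = 14 spots) on the LLC array against 30.9 ± 4.10 (SD, n = 14 spots) on the MSC+LLC array. The other probe read 30.6 ± 4.69 (SD, n = 15 spots) on the LLC array and was not above background on the MSC+LLC array. The log2 ratio therefore rests on 1 probe, at 1.28 ± 0.26 after scaling and -2.24 without it. It was 0.69 in the deposited log2 values and 0.88 under quantile normalization, both below 2-fold, and 2.03 under normexp background correction. After scaling, the lowest signal detected on the MSC+LLC array corresponds to 216 units on the LLC array. The probe at 146 was below that level, so that it could have a ratio only if it was higher in MSC+LLC.

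miR-5113 and miR-5112 had ratios near 0 on the scaled log2 axis. miR-5113 read 247 ± 31.1 (SD, n = 14 spots) on the LLC array against 21.8 ± 2.74 (SD, n = 14 spots) on the MSC+LLC array with its brighter probe, where 10 of the 14 spots were above background. Its log2 ratio was 0.03 ± 0.26, within the spread of the spots, but -0.68 in the deposited log2 values and 1.31 under normexp background correction. Its dimmer probe read 77.5 ± 9.33 (SD, n = 15 spots) on the LLC array and was not detected on the MSC+LLC array.

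miR-5112, which the study also names, read 275 ± 60.2 (SD, n = 15 spots) and 883 ± 85.0 (SD, n = 14 spots) on its probes on the LLC array. On the MSC+LLC array the probes read 19.1 ± 4.47 (SD, n = 15 spots, 8 of them above background) and 60.03 ± 8.48 (SD, n = 15 spots). The probes gave nearly the same log2 ratio, -0.32 and -0.35. On the MSC+LLC array the dimmer probe lay next to 18.8, the lowest signal detected there. A clearly lower ratio could therefore not have been measured with it, and its nearness to the other probe is no separate support. The mean was -0.34 ± 0.26, and it turned to 0.74 under normexp background correction with an offset of 50. Without scaling miR-5112 was 14.6-fold dimmer on the MSC+LLC array, whereas miR-5100 was 3.46-fold dimmer. The difference between their log2 ratios was 2.07 ± 0.33, or 4.21-fold, under any constant per array. It was 1.69 (3.24-fold) under quantile normalization and fell to 0.76 (1.69-fold) under normexp.

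miR-5119 had 3 probes, of which 2 were detected on both arrays. These read 405 ± 18.5 (SD, n = 10 spots) and 675 ± 40.7 (SD, n = 10 spots) on the LLC array. On the MSC+LLC array they read 23.0 ± 3.02 (SD, n = 9 spots) and 32.7 ± 5.17 (SD, n = 10 spots). The log2 ratio was -0.73 ± 0.16 after scaling, -4.26 without it and 0.54 under normexp background correction, and 14.6% of miRNAs had a lower ratio. The third probe read 316 ± 20.2 (SD, n = 10 spots) on the LLC array, whereas 3 of its 10 spots were above background in MSC+LLC, which put it at least 1.46-fold lower after scaling.

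miR-5107-5p had the lowest ratio of the members. Its brighter probe read 649 ± 47.2 (SD, n = 14 spots) on the LLC array against 21.3 ± 4.23 (SD, n = 14 spots) on the MSC+LLC array, where 9 of the 14 spots were above background. The signal was 30.5-fold dimmer without scaling, and the log2 ratio after scaling was -1.41 ± 0.31, 2.65-fold lower, with 5% of miRNAs lower still. This ratio turned to 0.16 when the background was corrected by normexp with an offset of 50. The other probe read 222 ± 27.6 (SD, n = 15 spots) on the LLC array, fell short of detection on the MSC+LLC array and was at least 1.03-fold lower after scaling. The opposite arm, miR-5107-3p, was detected on neither array.

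**Figure D2:**
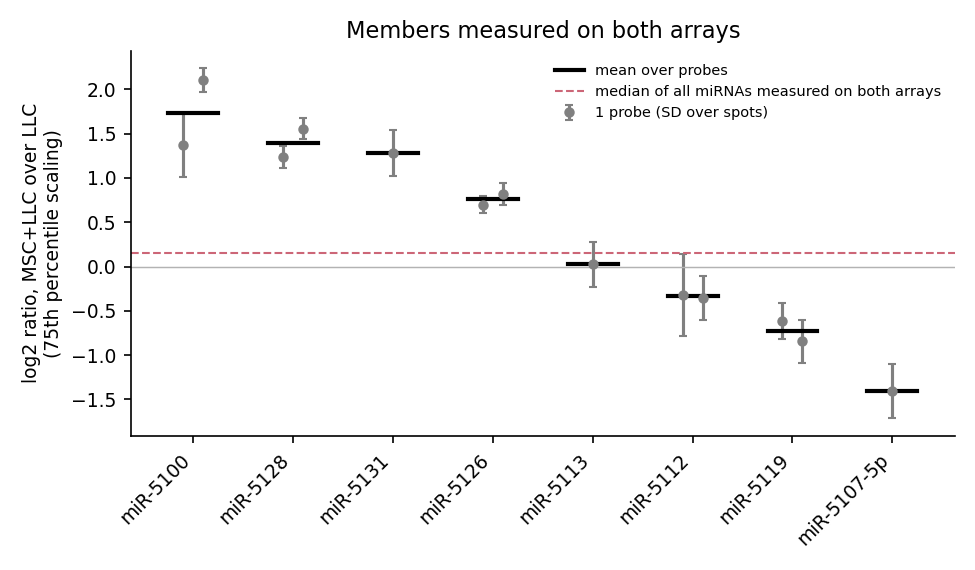
Log2 ratio of MSC+LLC over LLC for the 8 members measured on both arrays, after 75th percentile scaling. Grey points are single probes with the SD over spots, black bars the mean over probes, and the dashed line the median of the 240 miRNAs measured on both arrays (0.15). The members run from miR-5100 at 1.74 to miR-5107-5p at -1.41. All 8 fall below 0 when the arrays are not scaled, and all 8 lie above 0 under normexp background correction.

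Of these 8 members, 3 (miR-5100, miR-5128 and miR-5131) were at least 2-fold higher in MSC+LLC after scaling, beside 27.1% of all miRNAs measured on both arrays. A total of 1 member, miR-5107-5p, was at least 2-fold lower, beside 11.2% of all. miR-5131 was dim enough on the LLC array that only a higher ratio could have been measured, so its call is not separate from the detection limit. The same limit keeps dim miRNAs from being measured as lower, among the members and over all miRNAs. Without scaling the counts were 0 higher and 8 lower, and under normexp 4 higher and 0 lower. The median log2 ratio of the members was 0.39 and that of all 240 miRNAs was 0.15. In miR-6237 to miR-6420 the median of the 4 miRNAs measured on both arrays was -0.17, with 0 higher and 1 lower. In miR-670 to miR-719 the median of 6 was -0.33, with none at either threshold. With 8 members the counts are small, and neither is read as differing from the share over all miRNAs.

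The order of the members does not change with scaling by a constant, which moves all ratios alike, but it changed with other processing. Quantile normalization put miR-5128 (1.22) above miR-5100 (0.90). Normexp made miR-5131 the highest (2.03), put miR-5113 above miR-5126 and cut the gap between miR-5100 and miR-5107-5p to 1.34, or 2.53-fold. The gaps that follow are those under scaling by a constant. The highest and the lowest ratio, miR-5100 and miR-5107-5p, lay 3.14 ± 0.36 apart on the log2 scale, an 8.84-fold difference. Neighbours in the order lay closer. miR-5100 was above miR-5128 by 0.34 ± 0.21 and miR-5128 above miR-5131 by 0.11 ± 0.27. miR-5131 was above miR-5126 by 0.52 ± 0.27, and miR-5126 above miR-5113 by 0.74 ± 0.27, the widest gap. Further down, miR-5113 was above miR-5112 by 0.36 ± 0.37, miR-5112 above miR-5119 by 0.39 ± 0.31, and miR-5119 above miR-5107-5p by 0.68 ± 0.34. The gaps between miR-5128 and miR-5131 and between miR-5113 and miR-5112 were within the SD from spots, and the other gaps came to 1.28 to 2.75 times that SD. This SD leaves out the difference between probes of a miRNA and narrows where 2 probes are averaged in place of 1. It therefore does not show how well the order is resolved. The probes of miR-5100 lay 0.74 apart, more than its gap of 0.34 to miR-5128.

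**Figure D3:**
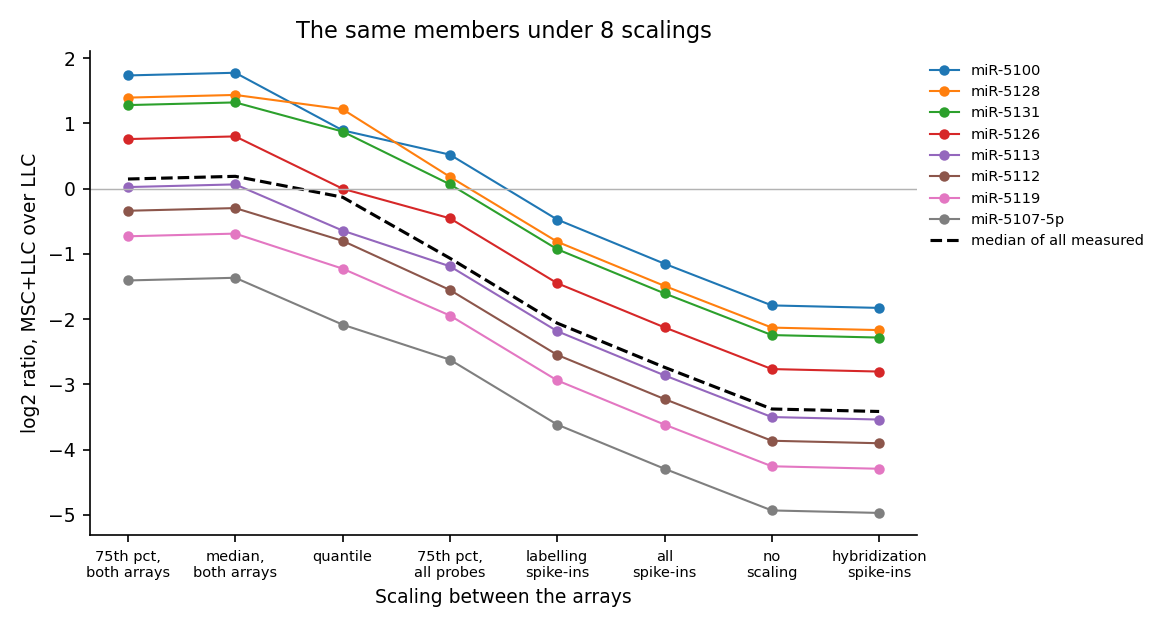
Log2 ratio of MSC+LLC over LLC of the same 8 members under 8 ways to scale the arrays against each other, with the median of all 240 miRNAs measured on both arrays as a dashed line. Every way but quantile normalization shifts all members and the dashed line by the same amount, so only quantile normalization could change which members lie above the line. miR-5100 goes from 1.74 under the 75th percentile of probes seen on both to -0.47 under the labelling spike-ins and -1.79 without scaling, and 4 of the 8 members lie above the dashed line under each of the 8.

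The direction of miR-5100, miR-5128, miR-5131, miR-5126 and miR-5113 changed with the choice of scaling, whereas miR-5112, miR-5119 and miR-5107-5p were below 0 under all 8 scalings. Dividing by the 75th percentile of all probes gave miR-5100 a log2 ratio of 0.52, and quantile normalization gave 0.90. Under the labelling spike-ins it was -0.47, under all spike-ins -1.15, under the hybridization spike-ins -1.83 and without scaling -1.79. Normexp background correction, with the 75th percentile as before, put all 8 members above 0, beside a median of 0.84 over all 240 miRNAs. Scaling by a constant moves the members and the median of all measured miRNAs alike, so it cannot change which members lie above that median. Of the 8 scalings only quantile normalization could change this. Under it, as under the constants, miR-5100, miR-5128, miR-5131 and miR-5126 lay above the median and the other 4 members below it. Under normexp miR-5126 (0.52) was below that median and miR-5113 (1.31) above it.

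The 7 members seen on the LLC array alone read at most 411 there, and for most of them little can be said of the ratio. After scaling, the lowest signal detected on the MSC+LLC array corresponds to 216 units on the LLC array, so that a probe below that level could not have been followed even without a change. A total of 5 of the 7 members had all their probes below it. The highest of these was miR-5121, at 78.1 ± 12.1 (SD, n = 15 spots) and 180 ± 17.3 (SD, n = 15 spots) on the LLC array. The others were miR-5132-5p, miR-5110, miR-5103 and miR-5135, whose brighter probes read 121 ± 13.9, 52.0 ± 5.71, 33.4 ± 5.38 and 22.8 ± 5.03 (SD, n = 15 spots each). The last of these, miR-5135, had 8 of 15 spots above background, just over the limit for detection.

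miR-5130 and miR-5118 were above that level with their brightest probes, at 411 and 383. The measured probes of miR-5131 and miR-5113, at 146 and 247 on the LLC array, were dimmer than these. miR-5130 read 156 ± 11.4 (SD, n = 13 spots) and 411 ± 17.7 (SD, n = 14 spots) on the LLC array, and its brighter probe was at least 1.90-fold lower in MSC+LLC after scaling and at least 21.9-fold dimmer without it. Averaged over both probes the bound was at least 1.17-fold. miR-5118 read 88.8 ± 6.51, 383 ± 24.7 and 215 ± 8.36 (SD, n = 10 spots each) on its 3 probes on the LLC array. Its brightest probe was at least 1.77-fold lower after scaling and at least 20.4-fold dimmer without it, and the average over the 3 probes gave no bound. No member reached a 2-fold bound with the values per spot used here. In the deposited log2 values miR-5130 was measured on both arrays, at 0.22 for LLC and -1.93 for MSC+LLC, a difference of -2.15. There miR-5118 was at the lowest deposited value of the MSC+LLC array, -6.80.

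The 23 members detected on neither array were miR-5098, miR-5099, miR-5101, miR-5104, miR-5106, miR-5107-3p, miR-5108, miR-5114, miR-5116, miR-5120, miR-5122, miR-5123, miR-5124a, miR-5124b, miR-5125, miR-5127, miR-5129-3p, miR-5129-5p, miR-5132-3p, miR-5133, miR-5134-3p, miR-5134-5p and miR-5136. Their 47 probes read -5.15 to 20.8 on the LLC array, while the range was -5.96 to 5.55 on the MSC+LLC array. The highest was miR-5104, just under the lowest detected probe of the LLC array at 20.9. These values give only an upper limit and do not show that the miRNAs were missing from the exosomes. Where both arms of a hairpin were on the array, the arms differed in detection in 2 cases, with miR-5107-5p and miR-5132-5p detected and their 3p arms not.

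The members were rich in G and C, and those that were detected more so. The median share of G and C was 56.9% over the 32 members with a sequence (range 36.4% to 100%), beside 52.2% over all 1608 array miRNAs with one. It was 62.5% in the 13 members detected on the LLC array against 50% in the 19 detected on neither array. Over all miRNAs it was 54.5% in those detected on the LLC array and 52% in those detected on neither. The like runs went the same way, with 57.1% and 50% in miR-6237 to miR-6420 and 54.8% and 52.4% in miR-670 to miR-719. Of the 14 members with at least 60% G and C, 9 were detected on the LLC array, and of the 18 below that, 4 were. Over all miRNAs the shares were 35% and 22.2%. miR-5126 was the only one of the 1608 sequences made of G and C alone, and G made up 77.3% of it. The part that base composition plays in the signal was not tested.

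**Figure D4:**
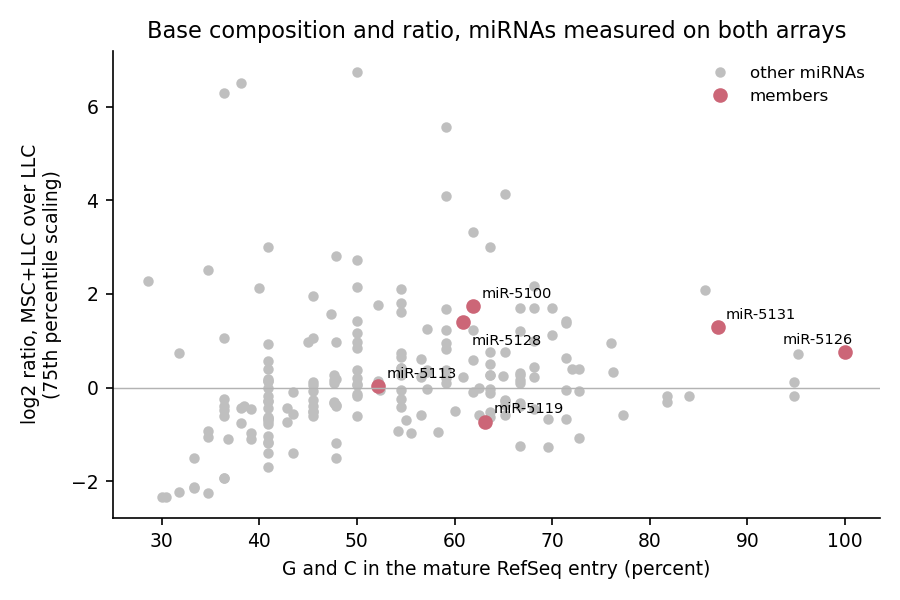
Share of G and C in the mature sequence against the log2 ratio of MSC+LLC over LLC (75th percentile scaling) for the 197 miRNAs measured on both arrays that have a RefSeq sequence, with the 6 members in red. The members lie at 52.2% or above. The lowest ratios of the other miRNAs lie below 40% on the horizontal axis. Some of the highest ratios, those of miR-467f and miR-466i-3p among them, also lie below 40%, so that range holds both ends of the ratios.

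The ratio was compared with base composition across miRNAs, and the relation was weak. Over the 197 miRNAs measured on both arrays with a sequence, Pearson's r between the share of G and C and the log2 ratio was 0.18 and Spearman's rho was 0.31, as a description across miRNAs of 1 pair of arrays, which share those arrays and are not independent replicates. Without the 6 members the values were 0.17 and 0.31, and over the 6 members alone they were 0.21 and -0.09. The share of G alone went the other way over the 197 miRNAs, with r = -0.20 and rho = -0.07. The median log2 ratio was -0.85 in the 28 miRNAs with less than 40% G and C, -0.29 in the 52 from 40% to 50%, 0.37 in the 50 from 50% to 60%, 0.22 in the 44 from 60% to 70% and 0.40 in the 23 above. All 6 members with a sequence lay in the upper 3 of these bins. Their median composition was 62.5%, beside 52.4% over the 197. Within the upper bins the members differed widely: miR-5100, miR-5128 and miR-5119 all had 60% to 70% G and C, and their log2 ratios were 1.74, 1.40 and -0.73.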

How the data were processed

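Serum exosomal RNA of 1 LLC and 1 MSC+LLC sample was hybridised to 1-colour Agilent mouse miRNA arrays. The deposited scanner files, made by the authors with Agilent's Feature Extraction (version 11.5.1.1 in the headers, 10.7 in the submitters' processing notes), hold background-subtracted intensity per spot. The deposited series table holds log2 values from GeneSpring GX, which were an alternative only. They differ by a constant per array from the scanner's summed signal per miRNA, and not from the values per spot. They therefore do not keep the spacing of the ratios used here: miR-5100 was 1.72 against 1.74, and miR-5113 was -0.68 against 0.03.

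Of 56430 spots per array, control spots and those marked as outliers (3.04% and 2.95%) were left out, and 0 were saturated. Kept spots were averaged per probe, signals were divided by their array's 75th percentile, taken over probes detected on both, and the log2 ratios of probes detected on both arrays were averaged per miRNA. Calls were made at 2-fold. For a probe detected on 1 array, the bound used the higher of its own signal and the lowest detected signal on the other array. The members and the lists were chosen with earlier results of these data known. Every member detected on an array is named with its values, members detected on neither are named once, and of other miRNAs only miR-193a-3p, miR-210-3p and a list of blood miRNAs are given. No p-value was computed. The number of arrays limits the precision. Sequences were matched by name to RefSeq (GRCm38.p6), and probe sequences were not used here. Alternatives changed the scaling, background correction, detection rule, summary and fold threshold. Python 3.11.15, pandas 2.3.3, numpy 2.4.6, R 4.3.3 and limma 3.58.1 (normexp) were used, and the scripts were tested on simulated data.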

Additional observations from a re-analysis of the deposited data

How the results depend on the processing

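A total of 19 alternatives were tried. No paired analysis was possible because only 1 array stands for each group. Scaling by a constant per array moves every ratio alike by construction. Normexp here adds 50 units to every signal, more than the measured MSC+LLC signals of miR-5107-5p, miR-5113, miR-5119, miR-5131 and 1 probe of miR-5112. By construction this moves the unscaled ratio of a dim probe towards equality. How much of the change under normexp came from it was not tested, nor was the cause under the other alternatives. The order of settings here is the 75th percentile of all probes, quantile normalization, no scaling, all spike-ins, labelling spike-ins and hybridization spike-ins. Under them the log2 ratio of miR-5100 was 0.52, 0.90, -1.79, -1.15, -0.47 and -1.83, that of miR-5112 was -1.55, -0.80, -3.86, -3.23, -2.55 and -3.90, and the median of the members was -0.82, -0.32, -3.13, -2.49, -1.82 and -3.17. The members at least 2-fold higher numbered 0, 1, 0, 0, 0 and 0, and those at least 2-fold lower 4, 2, 8, 8, 5 and 8. Under the last 4 of these settings miR-5128 turned to -2.13, -1.49, -0.81 and -2.17 and miR-5131 to -2.24, -1.60, -0.93 and -2.28.

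Normexp background correction gave 1.496 for miR-5100, 0.74 for miR-5112, 0.16 for miR-5107-5p, a median of 0.99 and 0 members lower. The brightest probe gave 2.10 for miR-5100, and the summed signal per miRNA gave 2.09, a median of -0.29 and 2 lower. The authors' values gave -0.66 for miR-5112, 0.69 for miR-5131, a median of -0.66, 2 higher and 3 lower. The scanner's detection flag gave a median of -0.47 and 2 lower, detection in every spot a median of 1.13 and 0 lower, and leaving out dim probes a median of 1.05, 0 lower and 4 members detected on the MSC+LLC array in place of 8. A 4-fold threshold left 0 higher and 0 lower, and a 1.5-fold threshold gave 2 lower. The members detected on the LLC array numbered 13 to 18 under all detection rules tried. Signals on the MSC+LLC array near 18.8, the lowest detected there, limit miR-5107-5p, miR-5113 and 1 probe of miR-5112, and the absence of replicate arrays limits all ratios.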
